A study of Mus musculus with 33 samples.

Results

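Cytosolic ribosomal protein genes are the genes for the protein subunits of the ribosomes that translate nuclear mRNA. They were taken as every gene whose mouse symbol begins with Rpl or Rps and a digit, together with Rplp0, Rplp1, Rplp2 and Rpsa. Symbols containing -ps and the ribosomal S6 kinases were left out. The rule found 93 of the 54752 genes in the count table, 55 with a large-subunit symbol (Rpl) and 38 with a small-subunit symbol (Rps). Of these, 86 were annotated as protein-coding and 7 as types of processed pseudogene, though named without -ps. A low-count filter passed 90 members, and the 3 that failed it were Rpl10l and Rps12l1, which had 0 counts in all 33 libraries, and Rpl39l. One member, Rps19bp1, encodes a protein that binds Rps19 and is not itself a ribosome subunit. Another, Rpl7l1, encodes a factor of ribosome assembly related to Rpl7. Both are counted as members and reported under their own names.

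The study sorted populations of mouse bone marrow cells, sequenced their RNA, and asked how progenitors give rise to neutrophils and monocytes and what sepsis changes in them. There were 11 groups of 3 libraries, described as biological replicates. The 4 sepsis groups were sepsis Ly6C- GMP, sepsis proNeu1, sepsis proNeu2 and sepsis preNeu, from mice killed on day 3 of mid-grade CLP, in which the caecum is tied off and punctured so that gut bacteria infect the abdomen. Their 4 controls were Ly6C- GMP (granulocyte-monocyte progenitors without Ly6C), proNeu1 and proNeu2 (early neutrophil progenitors) and preNeu (a later, granule-forming stage). The other 3 groups were cMoP (the common monocyte progenitor), TpMo and Ly6Chi monocyte. The control mice are called wild type. Strain, age, pooling of animals and whether controls had sham surgery are not given in the sources used here.

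Each ribosome joins a large subunit, which forms peptide bonds, to a small subunit, which reads the mRNA. The subunit proteins are made in near-equal numbers, and many of their mRNAs start with a C followed by a run of pyrimidines, the terminal oligopyrimidine or TOP motif, through which mTOR signalling adjusts their translation. Proliferating myeloid progenitors make many ribosomes, and neutrophils lose much of this capacity as they mature.

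Library totals ran from 5.52 to 39.98 Mcounts (1 Mcount is 1000000 counts), and 5 libraries were shallow, with at most 6.78 Mcounts: sepsis proNeu1 replicate 1, sepsis preNeu replicate 3, proNeu1 replicate 1, preNeu replicate 3 and Ly6Chi monocyte replicate 2. The granule genes Elane, Mpo, Prtn3 and Ctsg summed to 25670 to 42600 CPM (counts scaled to a library total of 1000000) in the 3 earlier sepsis populations and to 43840 to 96510 CPM in their controls. In preNeu they summed to 18830 to 19780 CPM in sepsis and to 8708 to 19870 CPM in control, which overlapped. Progenitor genes Cd34, Kit, Fcgr3 and Flt3 summed to 731 to 942 CPM in sepsis Ly6C- GMP. They summed to 1442 to 1672 CPM in Ly6C- GMP. Their sums, sepsis first, were 702 to 864 against 1278 to 1457 CPM in proNeu1. In proNeu2 they were 608 to 790 against 1036 to 1151 CPM. In preNeu they overlapped, at 451 to 526 CPM in sepsis and 493 to 658 CPM in control. Ltf, Camp, Ngp and Ly6g, which mark preNeu, summed to 21690 to 28960 CPM in sepsis preNeu and to 58350 to 84880 CPM in preNeu. The same genes summed to 98.7 to 221 CPM in sepsis proNeu1 and to 1673 to 3721 CPM in proNeu1. Their sums were 511 to 901 CPM in sepsis proNeu2 and 1347 to 3083 CPM in proNeu2, and overlapped in Ly6C- GMP (45.6 to 108 CPM in sepsis and 62.1 to 104 CPM in control). Basophil and mast cell genes (Prss34, Mcpt8, Cpa3 and Ms4a2, each with counts in both groups) summed to 254 to 932 CPM in sepsis Ly6C- GMP and to 7958 to 11730 CPM in Ly6C- GMP. Dendritic genes (Cd74, H2-Ab1, H2-Aa and Siglech, each with counts in both) summed to 12.96 to 17.8 CPM in sepsis Ly6C- GMP and to 2496 to 3595 CPM in Ly6C- GMP. Eosinophil genes (Epx, Prg2 and Il5ra) summed to 2288 to 4268 CPM in sepsis Ly6C- GMP and to 4524 to 8384 CPM in Ly6C- GMP. B lineage genes summed to 42.2 to 78.5 CPM in sepsis proNeu1, with Ms4a1 at 0, and to 1014 to 2162 CPM in proNeu1, where all 6 had counts. The part of these differences in cell content in the results below was not tested. In bulk RNA, fewer cells of a type and less RNA per cell cannot be told apart.

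The 30 bases around the annotated start of transcription are shown for members on which the results turn, 15 before and 15 from the start on, because the start is where a TOP motif lies. They are RefSeq sequences of GRCm38.p6, written 5′ to 3′ on the strand of the gene. Capitals mark a pyrimidine tract, defined as a C followed by at least 5 of C or T that begins between 5 bases before the start and the 10th base from it. The tract is marked from the first such C within these limits. The pyrimidines can therefore run on before the marked stretch, as they do in Rpl35 and Rpl12. Rpl35, Rps27 and Rps19bp1 were lower in the mean sepsis effect described below, and the others were higher.
Rpl35 (chr2:39005117-39005146, minus strand): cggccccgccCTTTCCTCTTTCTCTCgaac
Rps27 (chr3:90213634-90213663, minus strand): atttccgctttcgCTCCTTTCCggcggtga
Rps19bp1 (chr15:80264292-80264321, minus strand): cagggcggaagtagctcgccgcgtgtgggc
Rps2 (chr17:24720048-24720077, plus strand): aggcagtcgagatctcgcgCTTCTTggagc
Rps12 (chr10:23787195-23787224, minus strand): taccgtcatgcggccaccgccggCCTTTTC
Rpl12 (chr2:32961697-32961726, plus strand): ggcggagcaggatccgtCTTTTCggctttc
Rpsa (chr9:120127751-120127780, plus strand): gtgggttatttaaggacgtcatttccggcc
Rplp0 (chr5:115559452-115559481, plus strand): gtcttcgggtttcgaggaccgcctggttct
Rpl10 (chrX:74270801-74270830, plus strand): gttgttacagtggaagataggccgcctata
The tract stood at the annotated start of 32 of the 69 symbols with a RefSeq entry that fit the rule (46.4%). It stood at that of 15.2% of all 27025 genes with such an entry. The 69 symbols include Rps23rg1, which carries a tract and is not among the 93 members. Rpl35 and Rps27, which fell in sepsis, carry a tract, and Rpsa and Rpl10, which rose, have none in this window. Starts other than the RefSeq ones were not examined, so a gene without a marked tract is not shown to lack a TOP motif. The counts that follow are of RNA and do not measure translation, so the part of TOP control was not tested. Of the members with a tract, 25 of 31 tested were higher in the mean sepsis effect and 2 lower, with a median log2 fold change of 0.67. Of the members without one, 26 of 35 were higher and 1 lower, with a median of 0.56. Of all genes tested, 19.6% were higher and 17.5% lower. In the 300 bases from 250 before to 50 after the start, on either strand, CCGGAA, the core letters of GABP and other ETS sites, stood in 52.2% of the 69 symbols and 16.7% of all genes. CCATNTTG, the core of YY1 sites, stood in 15.9% and 5.85%, CACGTG, the E-box bound by MYC, in 8.70% and 8.09%, and TATAAA in 11.6% and 15.7%.

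The members differed widely in level. Divided by coding length, the highest mean levels over the 33 libraries were those of Rplp0 (2470 CPM per kilobase), which forms the base of the large-subunit stalk, and of Rpl4 (2017) and Rpl3 (1227), which reach into the core of the large subunit. Rps2, near the mRNA entry of the small subunit, followed at 847 CPM per kilobase, and Rpl41, the shortest ribosomal protein, at 807. Rpl4, Rplp0 and Rpl3 together held 31.2% to 42.75% of all member counts of a library. The lowest were Rpl3l, a copy of Rpl3 that is known from muscle (0.135 CPM per kilobase), Rpl24 (2.08), Rps27rt (3.93), Rpl36al (8.83) and Rps10 (9.14). Longer members had higher levels even per kilobase (Spearman's rho 0.62 over 84 members, a description across genes). The share of 100-base windows of the mRNA that occur in no other annotated transcript was 66.6% in the median member and under 50% in 30 members, so that reads of these can also belong to copies or pseudogenes. It was 19.9% for Rpl24, 8.43% for Rpl10 and 1.63% for Rps27, whose levels are uncertain, and 100% for Rps19bp1 and Rpl22. Its rho with the level per kilobase was -0.02 over the same 84 members.

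Members took between 0.379% and 2.84% of the counts of a library. The share averaged 2.14% ± 0.18 in sepsis Ly6C- GMP against 1.68% ± 0.03 in Ly6C- GMP, and 2.00% ± 0.13 in sepsis proNeu1 against 1.70% ± 0.08 in proNeu1 (SD, n = 3 each here and below). It averaged 1.92% ± 0.06 in sepsis proNeu2 against 1.28% ± 0.15 in proNeu2, and 1.42% ± 0.18 in sepsis preNeu against 0.726% ± 0.345 in preNeu. In each of these 4 pairs every sepsis library lay above every control library. The share averaged 2.66% ± 0.23 in cMoP, 1.60% ± 0.07 in TpMo and 1.502% ± 0.133 in Ly6Chi monocyte. The 3 preNeu libraries spread widely, at 0.379%, 0.731% and 1.07%, and replicate 1, the lowest, also had the highest sum of preNeu markers, 84880 CPM. Large-subunit members held 1.85 to 2.68 times the counts of small-subunit members.

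**Figure D1:**
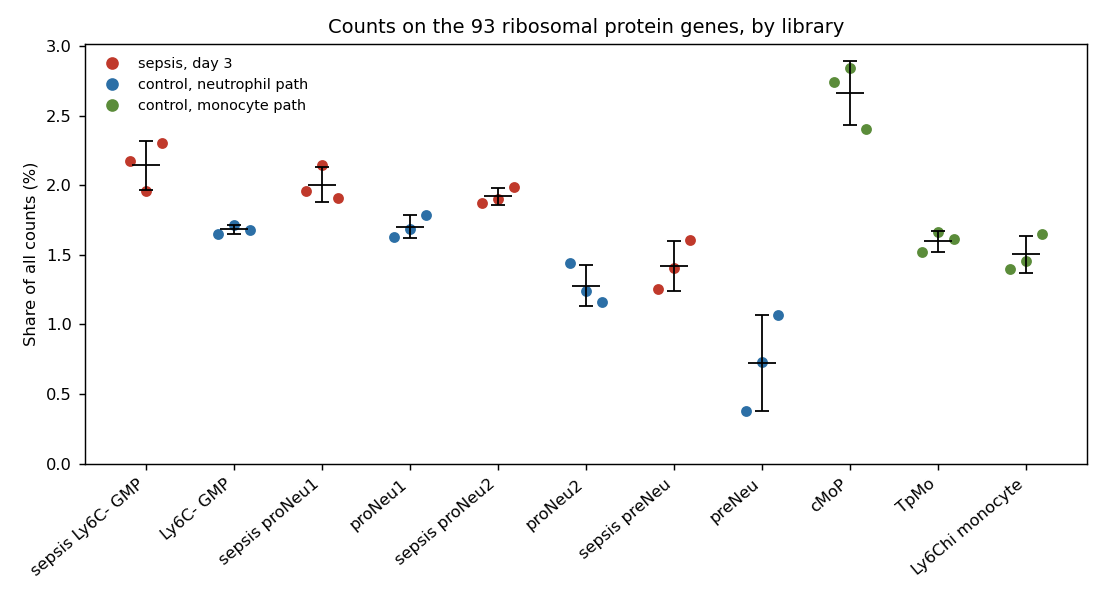
Percent of each library's counts on the 93 ribosomal protein genes, by group. Points are libraries and bars the mean ± SD of 3; all sepsis libraries lie above their own controls, cMoP is highest at 2.66% on average and preNeu lowest at 0.726%.

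Most members followed the same course over the groups. Of the 90 tested members, 69 had their highest mean in cMoP and 11 in sepsis Ly6C- GMP, while 67 had their lowest in preNeu and 15 in proNeu2. Among members at 20 CPM or more in some group, the range of log2 levels over the 11 groups was widest for Rpl12 (2.52), a protein at the base of the stalk, Rpl22 (2.51), Rpl35 (2.47), at the exit of the peptide tunnel, Rpl13a (2.42) and Rpl10a (2.42). It was narrowest for Rpl9 (1.23), Rpl37 (1.26), Rpl35a (1.33), Rps27l (1.35) and Rpl30 (1.37). Few windows of Rpl10a and Rpl9 are their own, so their ranges are uncertain. Rps19bp1, Rpl35, Rpl7l1 and Rps27 followed the mean of the 75 abundant members least, with Pearson's r over the 33 libraries of 0.33, 0.37, 0.49 and 0.57.

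**Figure D2:**
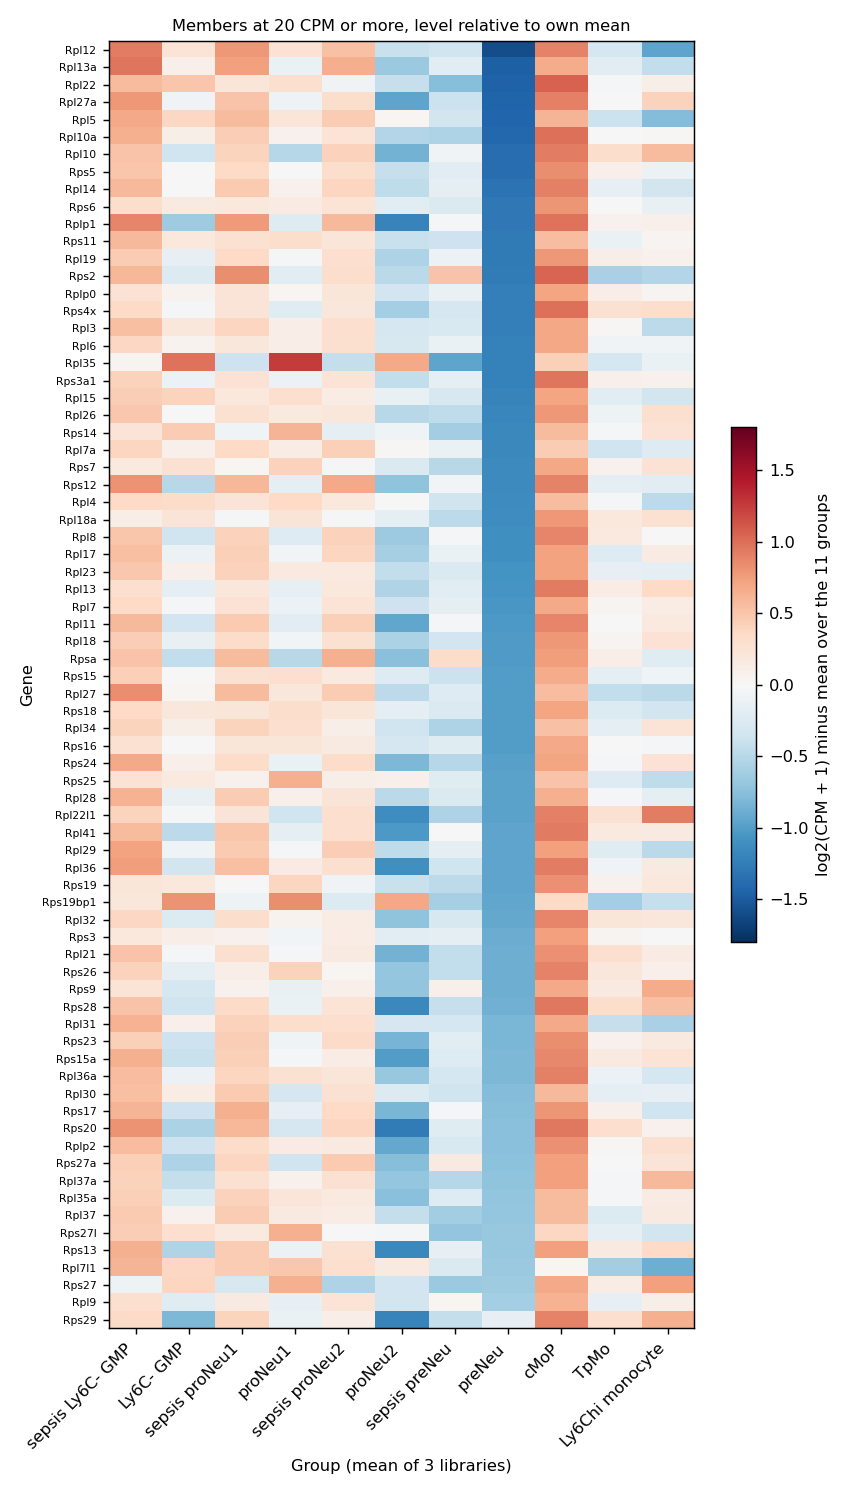
Mean log2(CPM + 1) of 74 of the 75 tested members at 20 CPM or more in some group, as the difference from the member's own mean over the 11 groups (columns; genes in rows ordered by preNeu). The preNeu column is below the mean in nearly all rows and the cMoP column above it, while Rpl35 and Rps19bp1 are highest in the control progenitor groups.

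The first question was what sepsis did to these genes. Taken over the 4 populations, 70 of the 90 tested members rose, 3 fell and 17 passed in neither direction. The threshold was an adjusted p of 0.05 (Benjamini-Hochberg over all genes tested) in edgeR's quasi-likelihood test. Of all 18198 genes tested, 37.1% were called, 19.6% higher and 17.5% lower. Here "mean sepsis effect" is the average of the sepsis minus control differences of the 4 populations. Its test treats the libraries of these populations as independent, and whether they share animals is not known. The median log2 fold change of the members was 0.61, against 0.00 for all genes, and 43 of 53 large-subunit and 27 of 37 small-subunit members rose. The 3 that fell were Rpl35, Rps19bp1 and Rps27. Every single library left out in turn left between 71 and 76 members called.

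**Figure D3:**
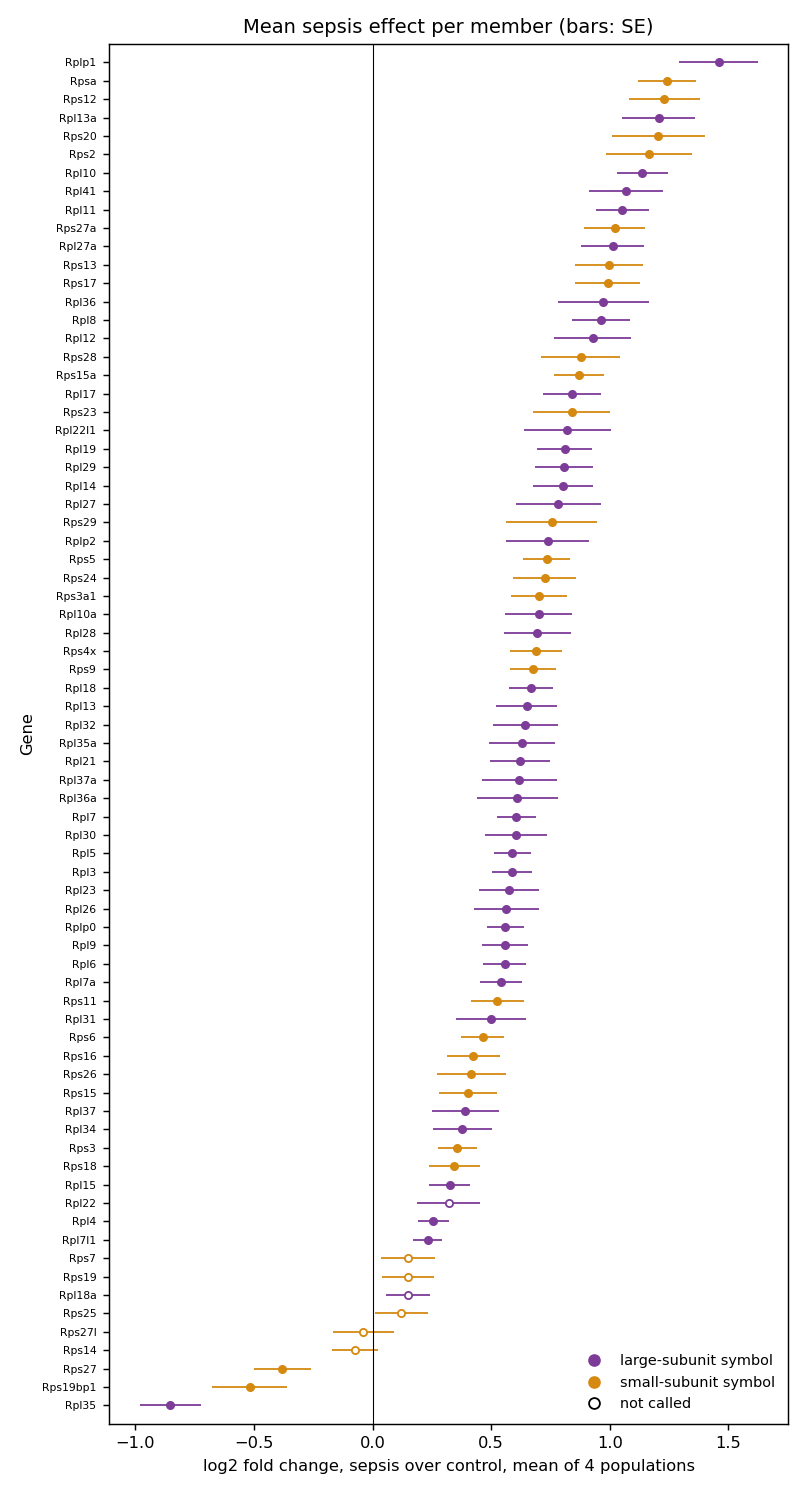
Log2 fold change of sepsis over control, averaged over the 4 populations, with its SE, for 74 of the 75 members at 20 CPM or more in some group. Filled points are called; Rplp1 is highest at 1.46, and Rps27, Rps19bp1 and Rpl35 are the called members below 0.

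The stalk of the large subunit recruits elongation factors. Its 4 listed genes (Rplp0, Rplp1, Rplp2 and Rpl12) were called higher in the mean effect, as were 70 of the 90 tested members and 19.6% of all genes. Rplp1, one of its acidic tips, had 101, 101 and 102 CPM in sepsis Ly6C- GMP against 23.6, 37.2 and 43.3 CPM in Ly6C- GMP, and 100.3, 107.5 and 71.1 CPM in sepsis proNeu1 against 45.4, 44.8 and 48.4 CPM in proNeu1. It had 75.4, 79.2 and 90.9 CPM in sepsis proNeu2 against 27.3, 19.6 and 22.7 CPM in proNeu2, and 43.01, 55.75 and 61.1 CPM in sepsis preNeu against 5.22, 27.65 and 32.6 CPM in preNeu. The 2 groups did not overlap in any population. The mean log2 fold change was 1.46 ± 0.16 (SE; edgeR adjusted p 4.06e-08). In proNeu1 alone the call (adjusted p 0.02445) was lost without any 1 of proNeu1 replicates 1 to 3 or sepsis proNeu1 replicates 1 and 2 (0.0571 to 0.106) and without the shallow libraries (0.134). Rplp2, its partner, rose by 0.74 ± 0.18 (adjusted p 0.00130) and Rplp0 by 0.56 ± 0.08 (adjusted p 1.85e-06). Rpl12 had 28.1, 34.8 and 41.9 CPM in sepsis preNeu against 3.45, 12.8 and 26.5 CPM in preNeu, without overlap, and rose by 1.33 ± 0.34 there (adjusted p 0.008555). That call was lost when only the 6 preNeu libraries were fitted (adjusted p 0.155).

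Among small-subunit proteins, Rpsa, which sits on the head of the subunit, had 823.5, 789.5 and 854 CPM in sepsis Ly6C- GMP against 440.3, 435 and 403.5 CPM in Ly6C- GMP, and 857, 865 and 854.5 CPM in sepsis proNeu1 against 421, 410.4 and 389 CPM in proNeu1. It had 796, 1000 and 907 CPM in sepsis proNeu2 against 421, 309 and 297 CPM in proNeu2, and 623, 682.5 and 882 CPM in sepsis preNeu against 103, 292 and 458 CPM in preNeu. Sepsis libraries were above control libraries in all 4 populations, and the mean log2 fold change was 1.24 ± 0.12 (edgeR adjusted p 3.44e-09). Rps12, in the beak of the subunit, had 49.5, 44.55 and 58.15 CPM in sepsis Ly6C- GMP against 20.5, 14.9 and 24.5 CPM in Ly6C- GMP and rose by 1.23 ± 0.15 in the mean effect (adjusted p 1.39e-07). Rps20 had 33.6, 36.6 and 43.5 CPM in sepsis proNeu2 against 11.3, 10.01 and 12.97 CPM in proNeu2, a rise of 1.75 ± 0.40 there (adjusted p 0.00248). These 2 genes did not overlap between the groups named. Rps2 had 1138, 1258 and 1192 CPM in sepsis proNeu1 against 562, 593 and 583 CPM in proNeu1, without overlap, and its mean rise was 1.17 ± 0.18 (adjusted p 7.26e-06). In sepsis preNeu it had 833, 867 and 1171 CPM, against 82.05, 247 and 506 CPM in preNeu, and rose by 1.76 ± 0.37 (adjusted p 0.00155). Its call in proNeu1 (adjusted p 0.0362) was lost without any 1 of the 6 libraries (0.0611 to 0.114). In sepsis proNeu2 its libraries spread from 520 to 1124 CPM and overlapped those of proNeu2, at 356 to 609 CPM. Rps6, the target of the S6 kinases, rose by 0.46 ± 0.09 in the mean effect (adjusted p 0.000175).

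Of the 2 proteins that bind 5S rRNA and, when free, inhibit Mdm2, Rpl5 rose by 0.59 ± 0.08 and Rpl11 by 1.05 ± 0.11 (edgeR adjusted p 7.22e-07 and 1.35e-08). Rpl11 had 102, 107 and 107 CPM in sepsis proNeu2 against 48.5, 32.3 and 40.5 CPM in proNeu2, which did not overlap. Rpl10, which joins the large subunit late, rose by 1.14 ± 0.11 (adjusted p 1.91e-09), with few windows of its own. Rpl36, at the tunnel exit, had 20.4, 18.95 and 22.6 CPM in sepsis proNeu2 against 8.49, 6.15 and 7.02 CPM in proNeu2, without overlap, and rose by 1.54 ± 0.38 there (adjusted p 0.00510). The 4 X-linked members Rpl10, Rpl36a, Rpl39 and Rps4x all rose, as did 70 of the 90 tested members. Of the 14 members whose human genes are mutated in Diamond-Blackfan anaemia, a failure of red cell production, 11 rose and 0 fell, a share like that of all tested members (70 of 90), with 19.6% of all genes higher. Rps19, the most often mutated, was at 0.15 ± 0.11 (adjusted p 0.322). Sepsis libraries lay above control libraries in all 4 populations for 23 members, against 3.75% of all genes, and 0 members lay below in all 4, against 2.47% of all genes. Rpl10, Rpl11, Rpl13a, Rplp1, Rps12, Rps27a (a ubiquitin fusion) and Rpsa were called higher in each of the 4 populations, as were 2.02% of all genes, and 0 members were called lower in each, as were 1.1%.

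Rpl35 went the other way. It had 15.1, 16.5 and 18.98 CPM in sepsis Ly6C- GMP against 22.5, 33.1 and 42.96 CPM in Ly6C- GMP, and 10.6, 17.2 and 9.13 CPM in sepsis proNeu1 against 38.04, 39.1 and 43.2 CPM in proNeu1. It had 12, 10.02 and 13.2 CPM in sepsis proNeu2 against 24.1, 24.3 and 31.04 CPM in proNeu2, and 8.04, 9.21 and 6.52 CPM in sepsis preNeu against 5.83, 8.51 and 4.89 CPM in preNeu. The groups overlapped in preNeu, where both were low, and in none of the other 3 populations. The log2 fold change was -0.83 ± 0.25, -1.64 ± 0.26 and -1.15 ± 0.26 in Ly6C- GMP, proNeu1 and proNeu2 (edgeR adjusted p 0.0213, 6.52e-05 and 0.00198) and 0.21 ± 0.26 in preNeu (adjusted p 0.692). The effects differed between populations (adjusted p of the interaction 0.00940). In Ly6C- GMP the call was lost without Ly6C- GMP replicate 3 (adjusted p 0.174), Ly6C- GMP replicate 2 (0.0561), sepsis Ly6C- GMP replicate 1 (0.0847) or sepsis Ly6C- GMP replicate 2 (0.0789).

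Rps27, a zinc-binding protein of the small subunit, had 30.8, 41.4 and 22.9 CPM in sepsis proNeu1 against 71.1, 61.99 and 50.2 CPM in proNeu1, and fell by 0.88 ± 0.24 there (edgeR adjusted p 0.0127) and by 0.38 ± 0.12 in the mean effect (adjusted p 0.0142). The 2 groups did not overlap in proNeu1. That call was lost without the shallow libraries (adjusted p 0.117) and without sepsis proNeu1 replicate 1 (0.0559), sepsis proNeu1 replicate 3 (0.0997) or proNeu1 replicate 1 (0.0584). Rps19bp1 had 7.15, 12.3 and 14.45 CPM in sepsis proNeu1 against 16.2, 21.9 and 29.5 CPM in proNeu1, and 7.38, 9.33 and 13.4 CPM in sepsis proNeu2 against 20.9, 23.8 and 16.3 CPM in proNeu2. It was lower without overlap in both, with a mean log2 fold change of -0.52 ± 0.16 (adjusted p 0.0104). Its calls in proNeu1 and proNeu2 (adjusted p 0.0457 and 0.0283) were each lost on leaving out any 1 of 4 libraries: sepsis proNeu1 replicates 1 and 2 and proNeu1 replicates 2 and 3 (0.0914 to 0.237), and sepsis proNeu2 replicates 1 and 2 and proNeu2 replicates 1 and 2 (0.0679 to 0.146). Rps14, whose human gene lies in the deleted region of 5q- syndrome, had 114, 145 and 95.8 CPM in sepsis proNeu1 against 188, 199.5 and 184 CPM in proNeu1 and fell there by 0.63 ± 0.19 (adjusted p 0.0248). Its mean effect was -0.07 ± 0.10 (adjusted p 0.623). Rps27l, the copy of Rps27 that p53 induces, had a mean effect of -0.04 ± 0.13 (adjusted p 0.913).

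**Figure D4:**
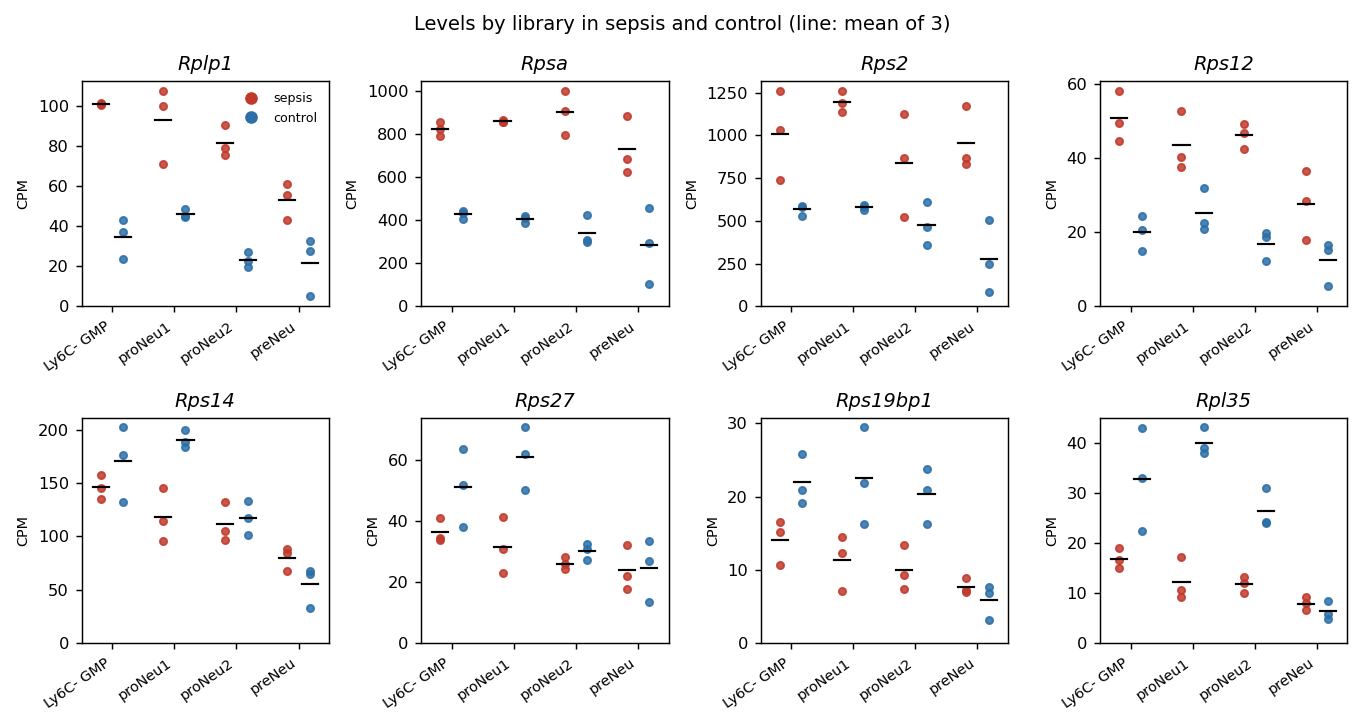
CPM of 8 members in each library (points) and group mean (line) of the 4 populations, sepsis beside control. Rplp1, Rpsa, Rps2 and Rps12 are higher in sepsis, most of them without overlap, while Rpl35 and Rps19bp1 lie below their controls in the 3 earlier populations and Rps27 in proNeu1, and all 3 overlap in preNeu.

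By population, 35 members rose and 1 fell in sepsis Ly6C- GMP against Ly6C- GMP (17.7% of all genes called, 10.3% higher and 7.42% lower), and 10 rose and 4 fell in sepsis proNeu1 against proNeu1 (15.6% called, 8.3% higher and 7.3% lower). The share of members called in proNeu1, 14 of 90, was thus near that of all genes. In sepsis proNeu2 against proNeu2, 46 rose and 2 fell (17% called, 9.45% higher and 7.57% lower), and in sepsis preNeu against preNeu, 42 rose and 0 fell (11.8% called, 7.57% higher and 4.21% lower). The median member changed by 0.67, 0.32, 0.77 and 0.72 in these 4, on the log2 scale. The interaction test called 2 members, Rpl35 and Rpl4 (6.34% of all genes), so that for the other 88 no difference between populations was shown. Without preNeu replicate 1 it called 15, and without preNeu replicate 3 it called 10. Rpl4 had 1765, 1973 and 1909 CPM in sepsis preNeu against 742, 1058 and 1522 CPM in preNeu, without overlap, and rose by 0.72 ± 0.13 there (adjusted p 0.000313), with log2 fold changes of 0.16 ± 0.13, -0.07 ± 0.13 and 0.21 ± 0.13 in Ly6C- GMP, proNeu1 and proNeu2. Without sepsis Ly6C- GMP replicate 3, sepsis Ly6C- GMP replicate 1, Ly6C- GMP replicate 1 or Ly6C- GMP replicate 2, 17, 19, 18 and 20 members were called in Ly6C- GMP. Any 1 library left out of the proNeu1 comparison left 4 to 8, and leaving out proNeu2 replicate 2 left 30 in proNeu2. Fitting only the 6 preNeu libraries left 7 in preNeu.

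**Figure D5:**
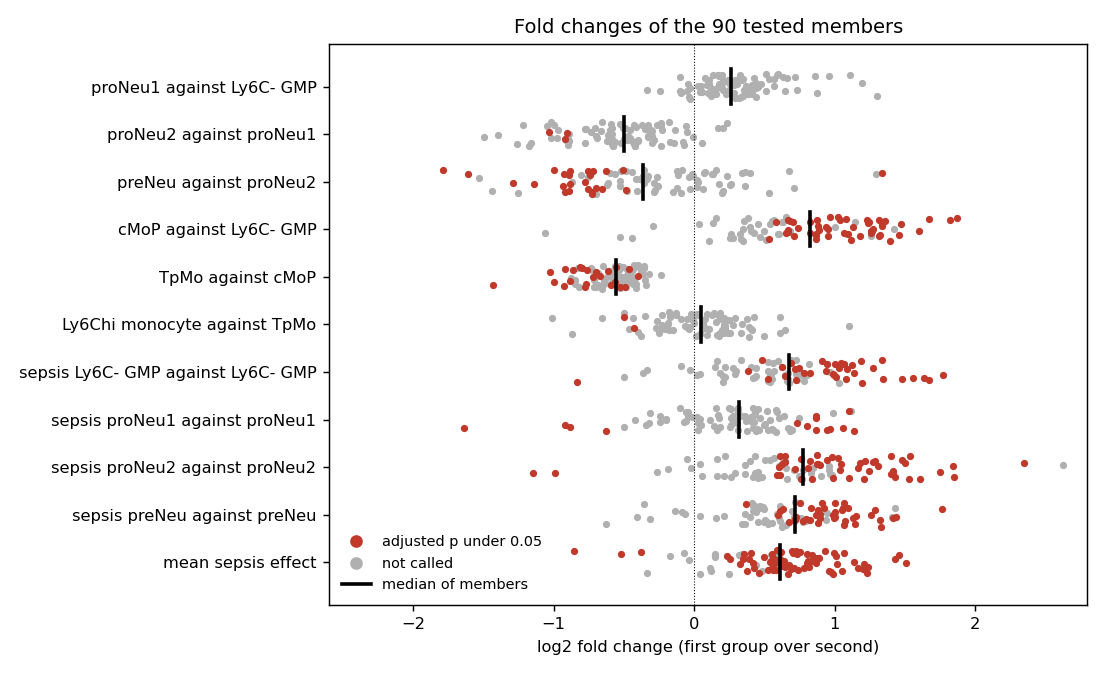
Log2 fold change of each of the 90 tested members (points, red where called) and their median (bar) for 10 comparisons of groups and the mean sepsis effect. The medians are 0.83 for cMoP against Ly6C- GMP and 0.61 for the mean sepsis effect; in 5 comparisons Rpl3l, with almost no counts, lies outside the axis.

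To see which members departed from the common shift, libraries were also scaled to the summed counts of the members. Rpl4, Rplp0 and Rpl3 held 31.2% to 42.75% of that sum in a library, so abundant members weigh most in this scale. It moves the median of all genes by -0.61 in the mean effect. On that scale 24 members rose and 15 fell, against 70 and 3. The share of all genes called on this scale is not given here. Counts on it, here and in the stage comparisons below, therefore compare the members only with each other. Rpl39, Rplp1, Rps21 and Rpsa rose most, by 0.98 ± 0.25, 0.91 ± 0.12, 0.89 ± 0.25 and 0.69 ± 0.07 relative to the members. Rpl35, Rps19bp1 and Rps27 fell most, by 1.48 ± 0.16, 1.17 ± 0.18 and 0.98 ± 0.11, followed by Rps4l (0.79 ± 0.16), Rps14 (0.67 ± 0.09) and Rps27l (0.64 ± 0.12). The split was 13 higher and 5 lower in Ly6C- GMP, 3 and 9 in proNeu1, 18 and 7 in proNeu2 and 4 and 12 in preNeu. The median member stood at 0.20, 0.04, 0.16 and -0.20 in these 4, so it was not held unchanged by this scale. The rise of the members in sepsis was a rise relative to all genes, and within the set the members moved unequally.

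Along the neutrophil path, proNeu1 was compared with Ly6C- GMP, proNeu2 with proNeu1 and preNeu with proNeu2. In proNeu1 against Ly6C- GMP, edgeR called 0 members in either direction (6.04% of all genes called, 3.59% higher and 2.45% lower), with 7 at an unadjusted p under 0.05, DESeq2 0 and limma 2. The median log2 fold change was 0.26. In proNeu2 against proNeu1, 0 rose and 3 fell (3.05% of all genes called, 1.57% higher and 1.48% lower), with a median of -0.50 and 4 of the 90 log2 fold changes above 0. The called members were Rps26 at 28.8, 22.7 and 28.98 CPM in proNeu2 against 63.1, 57.6 and 56.9 CPM in proNeu1 (-1.03 ± 0.29, adjusted p 0.0455), Rps15a (-0.92 ± 0.21, adjusted p 0.0143) and Rps27 (-0.91 ± 0.24, adjusted p 0.0372). For all 3 the 2 groups did not overlap, as for 67 members in all (12.9% of all genes). Any 1 library left out of this comparison left 0 to 2 members called, and Rps26 was called in none of these 6 fits (adjusted p 0.0913 to 0.195).

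In preNeu against proNeu2, 24 members fell and 1 rose, and 65 were not called. This share, 25 of 90, equals that of all genes, of which 27.8% were called, 13.1% higher and 14.7% lower. The median was -0.36, 25 of the 90 log2 fold changes were above 0, and 26 members were lower without overlap (23.3% of all genes). Rpl35 had 5.83, 8.51 and 4.89 CPM in preNeu against 24.1, 24.3 and 31.04 CPM in proNeu2 and fell most, by 1.79 ± 0.27 (edgeR adjusted p 5.86e-06). Rps19bp1 fell by 1.61 ± 0.33 (adjusted p 0.000335) and Rpl5, at 110, 149 and 267 CPM in preNeu against 506, 496 and 452 CPM in proNeu2, by 1.29 ± 0.16 (adjusted p 3.85e-07). The groups did not overlap for these 3 members. Rpl12, Rpl22, Rpl4, Rps6, Rpl3 and Rplp0 fell as well, by 0.70 to 1.14. Rps29, a zinc-binding small-subunit protein, was the 1 called member that rose (1.34 ± 0.39, adjusted p 0.00995), with 3.36, 32.1 and 23.6 CPM in preNeu against 9.11, 6.90 and 10.85 CPM in proNeu2, which overlapped. The calls depended on the spread of the preNeu libraries: without preNeu replicate 1, 13 rose and 18 fell, and without preNeu replicate 3, 1 rose and 44 fell. Scaled to the summed counts of the members, 23 rose and 3 fell, with a member median of 0.21, and the median of all genes moved by 0.75.

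Along the monocyte path the members were highest in cMoP. In cMoP against Ly6C- GMP, 50 members rose and 0 fell (17.2% of all genes called, 9.22% higher and 7.96% lower), with a median log2 fold change of 0.83. Rps29 had 37.6, 39.1 and 47.6 CPM in cMoP against 10.3, 12.4 and 13.2 CPM in Ly6C- GMP and rose by 1.82 ± 0.39 (edgeR adjusted p 0.00115). Rplp1 had 106.5, 117.5 and 101 CPM in cMoP against 23.6, 37.2 and 43.3 CPM in Ly6C- GMP (1.68 ± 0.33, adjusted p 0.000469), and Rps20 54.1, 60.9 and 53.1 CPM against 15.8, 18.9 and 22 CPM (1.60 ± 0.40, adjusted p 0.00470). None of these 3 overlapped. Rpsa rose by 1.23 ± 0.24, Rpl11 by 1.27 ± 0.22, Rplp0 by 0.68 ± 0.16 and Rps19 by 0.67 ± 0.22 (adjusted p 0.000503, 0.0001255, 0.00266 and 0.0352), while Rpl5 (0.28 ± 0.16), Rpl4 (0.26 ± 0.13) and Rpl35 (-0.53 ± 0.25) were not called. Leaving out any 1 library left 35 to 49 called, and scaled to the members 16 rose and 7 fell, with the median of all genes moved by -0.69.

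The libraries of these groups also differed in sex-linked genes. The Y-linked Ddx3y had 68.8 to 98.6 CPM in cMoP, TpMo and Ly6Chi monocyte and at most 0.725 CPM in the other 8 groups, while Xist, expressed from the inactive X, had at most 1.40 CPM in those 3 and 153 to 587.5 CPM in the other 8 (153 to 266 CPM in the 4 sepsis groups and 312.5 to 587.5 CPM in their controls). Sex and population cannot be told apart in cMoP against Ly6C- GMP. The X-linked members rose, as did 50 of the 90 tested members. Rpl39 rose by 1.87 ± 0.57, Rpl10 by 1.31 ± 0.22, Rpl36a by 1.08 ± 0.34 and Rps4x by 1.07 ± 0.22. Rpl39 had the highest log2 fold change of all 90 tested members. Basophil and mast cell genes summed to 12.8 to 19.0 CPM in cMoP and to 7958 to 11730 CPM in Ly6C- GMP, eosinophil genes to 1.61 to 8.40 CPM in cMoP and to 4524 to 8384 CPM in Ly6C- GMP, and dendritic genes to 7.24 to 11.51 CPM in cMoP and to 2496 to 3595 CPM in Ly6C- GMP. The part of these differences in the result was not tested.

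In TpMo against cMoP, 23 members fell and 0 rose (18.1% of all genes called, 9.52% higher and 8.56% lower), and all 90 log2 fold changes were below 0, with a median of -0.56. Rps2 had 257, 394 and 684 CPM in TpMo against 1491, 1532 and 1112 CPM in cMoP and fell by 1.43 ± 0.36 (edgeR adjusted p 0.00527). Rpl12 had 33.8, 36.04 and 37.8 CPM in TpMo against 84.1, 96.75 and 71.5 CPM in cMoP and fell by 1.03 ± 0.32 (adjusted p 0.0241). The call of Rpl12 was lost without cMoP replicate 1, cMoP replicate 2, TpMo replicate 1 or TpMo replicate 2 (0.0563 to 0.0842). The groups did not overlap for these or for 85 members in all (26.3% of all genes lower without overlap). Rpl22, Rps12, Rpl5, Rpl11, Rps6 and Rpl4 also fell, by 0.40 to 0.92. The count was 9, 7, 8, 12 and 13 without cMoP replicate 1, cMoP replicate 2, TpMo replicate 1, TpMo replicate 2 and TpMo replicate 3, and 71 when only the 6 libraries compared were fitted. Scaled to the members, 2 fell and 0 rose, with the median of all genes moved by 0.48.

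In Ly6Chi monocyte against TpMo, 2 members fell and 0 rose (20.9% of all genes called, 7.59% higher and 13.3% lower), and the median was 0.05. Rpl4 had 1736, 1786 and 1709 CPM in Ly6Chi monocyte against 2322, 2514 and 2219 CPM in TpMo (-0.43 ± 0.13, edgeR adjusted p 0.0157). Rpl3 had 992, 972 and 1057 CPM against 1429, 1493 and 1348 CPM (-0.50 ± 0.17, adjusted p 0.03435). Both were lower without overlap. Both calls were lost with RLE size factors (adjusted p 0.0562 and 0.0868), and 0 members were called without TpMo replicate 2 or Ly6Chi monocyte replicate 3, against 1 without TpMo replicate 1 or Ly6Chi monocyte replicate 2. Scaled to the members, 3 rose and 1 fell.

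Several members have copies elsewhere in the genome, and the share of a copy in the counts of its pair varied between groups. Rpl22l1 made up 29.1% ± 3.66 of the Rpl22 and Rpl22l1 counts in sepsis Ly6C- GMP against 23.96% ± 7.72 in Ly6C- GMP, and 31.7% ± 1.72 in sepsis proNeu1 against 22.3% ± 2.72 in proNeu1. It made up 37.4% ± 2.95 in sepsis proNeu2 against 20.3% ± 4.28 in proNeu2, and, the other way round, 34.1% ± 1.71 in sepsis preNeu against 40.05% ± 4.77 in preNeu. Its share was 41.5% ± 16.8 in Ly6Chi monocyte, where replicate 2 had 43.1 CPM of Rpl22l1 and the other libraries 9.08 and 21.8 CPM. Rps27l made up 44.8% ± 2.33 of the Rps27 and Rps27l counts in sepsis Ly6C- GMP against 34.1% ± 2.95 in Ly6C- GMP, and 43.9% ± 2.34 in sepsis proNeu1 against 36.05% ± 4.01 in proNeu1. It made up 45.05% ± 3.87 in sepsis proNeu2 against 40.9% ± 2.83 in proNeu2, which overlapped, 35.02% ± 3.94 in sepsis preNeu against 34.8% ± 2.74 in preNeu, and 20.3% ± 3.36 in Ly6Chi monocyte. Rpl7l1, a factor of ribosome assembly related to Rpl7, made up 37.65% ± 1.04 of the pair in sepsis Ly6C- GMP against 39.8% ± 3.13 in Ly6C- GMP, and 24.7% ± 3.39 in cMoP, 24.0% ± 0.73 in TpMo and 19.9% ± 1.76 in Ly6Chi monocyte. Rps4l, annotated as a pseudogene and named for Rps4x, made up 0.886% to 4.56% of its pair in the group means. Rpl3l held at most 0.07% of the Rpl3 pair in any library, Rpl39l at most 4.17% of the Rpl39 pair, Rps27rt at most 6.604% of the Rps27 pair, and Rpl10l was at 0. These pair shares were not tested, and few windows of Rps27 are its own.

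Genes that work beside the ribosomal proteins were counted from lists chosen with earlier results known, beside the 37.1% of all genes called in the mean sepsis effect (19.6% higher and 17.5% lower). Of the 3 ribosome proteins with other symbols, Rack1 rose by 0.83 ± 0.08 and Fau by 0.55 ± 0.12 in the mean sepsis effect (edgeR adjusted p 4.82e-09 and 0.000446). Of 14 translation genes with TOP mRNAs, 13 rose and 1 fell: Npm1 rose by 1.42 ± 0.12, Eef1a1 by 1.12 ± 0.11, and Pabpc1 fell by 0.16 ± 0.04 (adjusted p 3.36e-10, 3.44e-09 and 0.00193). Of 26 ribosome biogenesis genes 18 rose and 0 fell, led by Rrp12 (1.13 ± 0.14) and Bop1 (1.07 ± 0.10). Of 18 other translation factors 11 rose, led by Eif3i (1.04 ± 0.10) and the release factor Etf1 (0.90 ± 0.07), and 0 fell. Of 18 genes of RNA polymerases I and III 11 rose and 1 fell, and of 18 genes of mTOR and TOP control 5 rose and 3 fell, among them Eif4ebp1, the inhibitor of cap-dependent initiation, which fell by 0.44 ± 0.08 (adjusted p 3.11e-05). Of 9 p53 checkpoint genes 6 rose and 1 fell, and of 10 genes of ribosome rescue and hibernation 3 rose and 1 fell. The shares called of the rescue and mTOR lists are near that of all genes. Of 8 promoter-binding factors Gabpa rose (0.40 ± 0.08) and Sp1 fell by 0.58 ± 0.09.

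The biogenesis list was also counted in the stage comparisons. In cMoP against Ly6C- GMP, where 50 members rose, 0 of 26 biogenesis genes rose and 4 fell, led by Wdr12 (-0.93 ± 0.26, edgeR adjusted p 0.0123). The share of 4 in 26 is near the 17.2% of all genes called (9.22% higher and 7.96% lower), and 8 of the 14 TOP translation genes rose and 0 fell. In TpMo against cMoP, with 8.56% of all genes lower, all 26 biogenesis genes fell, led by Grwd1 (-1.82 ± 0.42) and Wdr12 (-1.78 ± 0.27), with a median of -1.16 against -0.56 for the members. In preNeu against proNeu2, with 14.7% of all genes lower, 25 of 26 fell, led by Nop16 (-3.09 ± 0.22) and Grwd1 (-3.00 ± 0.46), with a median of -1.57 against -0.36 for the members. Myc, a driver of ribosome production, fell by 2.15 ± 0.30 in TpMo against cMoP and by 2.16 ± 0.31 in preNeu against proNeu2 (adjusted p 6.00e-06 and 3.09e-06).

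The non-member genes whose log2 levels followed the mean of the abundant members most closely over the 33 libraries, among 8660 candidates, were Naca (Pearson's r 0.95), Eef1b2 (0.95), Eef2 (0.94), Eif3i (0.94) and Atic (0.92). The 33 libraries share group effects, so these are a description.

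Fold changes of the members moved with coding length in several comparisons. Spearman's rho between coding length and log2 fold change over 84 members was -0.63 for proNeu1 against Ly6C- GMP, 0.68 for proNeu2 against proNeu1, -0.47 for preNeu against proNeu2 and 0.55 for sepsis preNeu against preNeu. It was -0.05 for the mean sepsis effect. In that effect the median of members with a coding length of up to 400 bases was 0.62 (29 members), over 400 and up to 600 bases 0.62 (31), over 600 and up to 900 bases 0.67 (20), and above 900 bases 0.41 (4). The other genes at 20 CPM or more in the same classes had medians of -0.12, -0.04, 0.02 and 0.04. Among the 22 members with at least 80% of windows of their own, 17 rose in the mean sepsis effect and 1 fell (19.6% of all genes higher and 17.5% lower). In cMoP against Ly6C- GMP, 12 of them rose and 0 fell (9.22% of all genes higher and 7.96% lower). The part of length in the results was not tested further.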

How the data were processed

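RNA of sorted bone marrow populations was sequenced in 33 libraries from SMARTSeq v2 cDNA with Nextera tagmentation, per the labels' protocols. The deposited table holds counts per gene, which the authors made with STAR and featureCounts on GRCm38, per the submitters' processing notes. Versions and the settings for strand, read pairs and reads with several matches are not given in the sources used here. Of counts from 1 to 10, 76.2% were even. Reads of near-identical copies may be shared between genes, so members with few windows of their own are uncertain.

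Libraries were grouped by the cell type label, and replicates numbered only as names. CPM are counts scaled to a library total of 1000000, with no further normalization. Counts were fitted with edgeR 4.0.16 in R 4.3.3 (TMM factors, filterByExpr, robust quasi-likelihood, 1 mean per group, all 33 libraries, 22 residual degrees of freedom), with Benjamini-Hochberg adjustment over 18198 genes and a call at 0.05. Fold changes and their SE are from this fit, which assumes the same spread law in all groups. Alternatives were RLE factors, TMM without the members, libraries scaled to the members, no filter, a filter of 5 CPM in 3 libraries, only the libraries compared, no shallow libraries, DESeq2 1.42.0, limma 3.58.1 and each library left out. Shares of all genes called are from the main fit only, so counts of members under an alternative have no such share beside them. On simulated counts for sepsis proNeu1 against proNeu1, with changed genes drawn regardless of membership, the test found 52% of 2-fold and 84% of 4-fold changes.

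The members and all lists were chosen with earlier results of these data known. Named were the 3 largest called rises and falls per comparison at 20 CPM or more, a panel of subunits and copies, the extremes of level and of range, and 2 genes per related list and direction. One member is not reported here by name and is left out of the plots that name genes. Other genes named were chosen after their values were seen, among them Rps27a, Rps21, Rps29 in preNeu and the further members listed for preNeu against proNeu2 and TpMo against cMoP. Coding lengths and windows came from the GENCODE annotation of GRCm38, and start sequences from RefSeq. P-values measure the spread between libraries described as biological replicates. Which libraries came from the same animals is not given in the sources used here. Libraries of different populations can therefore share animals, while the fit treats all libraries as independent. If they do share animals, the p-values of the mean sepsis effect can be too small. Counts of genes that were higher or lower in every population can then also rest on the same animals.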

Additional observations from a re-analysis of the deposited data

Results flagged for a closer look

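The sepsis effects of 2 members differed between the 4 populations by the interaction test of edgeR's quasi-likelihood fit, adjusted over all 18198 genes. This was 2.22% of the 90 tested members, against 6.34% of all genes. For Rpl35 the adjusted p of the difference was 0.0094, with log2 fold changes of -0.83 (Ly6C- GMP), -1.64 (proNeu1), -1.15 (proNeu2) and 0.21 (preNeu), and its sepsis libraries lay below the 3 controls in Ly6C- GMP, proNeu1 and proNeu2 and overlapped them in preNeu. For Rpl4 it was 0.0302, with log2 fold changes of 0.16 (Ly6C- GMP), -0.07 (proNeu1), 0.21 (proNeu2) and 0.72 (preNeu). The count of such members was 15 without preNeu replicate 1 and 10 without preNeu replicate 3, and the share of all genes called in those fits is not given.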

How the results depend on the processing

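Of 678 alternative values of the 38 named member results, 600 kept direction and side of the threshold, 78 lost the call and 0 reversed. These results were chosen as the largest called changes of the main fit, so an alternative could only keep or lose a call. The alternatives also reuse the same libraries, so the totals are a description and not an independent check. Counts of called members moved by more than 1.5 times in these cases. The share of all genes called under each alternative is not given, here or in the next paragraph. These counts therefore cannot be set against all genes. Scaling to the members sets their summed counts equal between libraries and so takes out the change of that sum. For the other alternatives the cause was not tested. With libraries scaled to the members the counts were 0 for proNeu2 against proNeu1, 23 for cMoP against Ly6C- GMP, 2 for TpMo against cMoP, 4 for Ly6Chi monocyte against TpMo, 18, 25 and 16 for sepsis in Ly6C- GMP, proNeu2 and preNeu, and 39 for the mean sepsis effect. With only the compared libraries fitted they were 7 (proNeu2 against proNeu1), 9 (preNeu against proNeu2), 71 (TpMo against cMoP), 6 (Ly6Chi monocyte against TpMo), 55, 39 and 7 (sepsis in Ly6C- GMP, proNeu1 and preNeu) and 1 (interaction). limma gave 2 (proNeu1 against Ly6C- GMP), 67 (TpMo against cMoP), 60 and 26 (sepsis in Ly6C- GMP and proNeu1) and 12 (interaction). DESeq2 gave 11 (proNeu2 against proNeu1) and 5 (interaction). The stricter filter gave 6 (proNeu2 against proNeu1), 36 (TpMo against cMoP), 4 (Ly6Chi monocyte against TpMo) and 5 (interaction). Without the shallow libraries the counts were 1 (proNeu2 against proNeu1), 40 (preNeu against proNeu2), 6 (sepsis in proNeu1) and 8 (interaction).

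With 1 library left out, counts ran from 0 to 1 for proNeu1 against Ly6C- GMP, 0 to 2 for proNeu2 against proNeu1, 17 to 45 for preNeu against proNeu2, 35 to 49 for cMoP against Ly6C- GMP, 7 to 22 for TpMo against cMoP and 0 to 3 for Ly6Chi monocyte against TpMo. For sepsis they ran from 17 to 31 in Ly6C- GMP, 4 to 8 in proNeu1, 30 to 41 in proNeu2, 28 to 48 in preNeu, 71 to 76 in the mean effect and 1 to 15 in the interaction. The log2 ratio of the members' share ran from -0.02 to 0.05, -0.51 to -0.34, -1.21 to -0.51, 0.61 to 0.73, -0.81 to -0.69 and -0.16 to -0.04 in the 6 stage comparisons in the same order, and from 0.29 to 0.41, 0.18 to 0.27, 0.52 to 0.68 and 0.66 to 1.36 for sepsis. Taking the median member in place of the share, it was 0.17 for proNeu1 against Ly6C- GMP, -0.76 for proNeu2 against proNeu1, 0.15 for Ly6Chi monocyte against TpMo, 0.67 for sepsis in Ly6C- GMP and 0.91 in proNeu2. Of the changes simulated in sepsis proNeu1, 52% of 2-fold ones were found, so changes of this size or smaller can be missed. The changed genes were drawn at random outside the lowest levels, regardless of membership. The detection rate of the members themselves was not simulated. No paired analysis was possible because the labels carry no replicate numbers that pair samples.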

Other observations

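Ribosomal protein pseudogenes named with -ps were left out of the members, and 300 of them had a line in the table. Their summed level averaged 257 ± 20.6 CPM in sepsis Ly6C- GMP against 201 ± 3.36 CPM in Ly6C- GMP, and 244 ± 20.2 CPM in sepsis proNeu1 against 224 ± 46.8 CPM in proNeu1. It averaged 237 ± 21.1 CPM in sepsis proNeu2 against 147 ± 12.1 CPM in proNeu2, and 179.5 ± 33.4 CPM in sepsis preNeu against 98.05 ± 44.1 CPM in preNeu. It averaged 330.5 ± 23.7 CPM in cMoP, 197 ± 7.62 CPM in TpMo and 203 ± 22.0 CPM in Ly6Chi monocyte (SD, n = 3 each). Reads of the parent genes that match them were not separated, and the sums were not tested.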
